A study of Mus musculus with 6 samples.

Results

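Imprinted growth-control genes are transcribed mainly from the allele inherited from 1 parent, and the 10 described here were chosen by name: H19, Igf2, Igf2r, Meg3, Dlk1, Peg3, Cdkn1c, Plagl1, Mest and Grb10. They were chosen with earlier results of these data known, as were the lists of related genes below. Each of the 10 names matched 1 row, so that 10 of the 30862 gene rows of the deposited expression table are described, and all 10 passed the filter on low counts. RNA was sequenced from cultured granulosa cells taken from ovaries of 21-day-old ICR mice, an outbred stock. Control cells (3 libraries, particle dose 0 µg/mL, labelled WT) were compared with cells given polystyrene microplastics (PS-MP) of 100 nm at 750 µg/mL for 24 h (3 libraries), after 12 h of adhesion in both groups. The labels number the libraries 1 to 3 in each group and call them biological replicates, with nothing on whether cultures or mice were separate. The p-values below therefore reflect how these libraries vary, and some of that variation may be technical. The 2 libraries that carry the same number, 1 from each group, are called a pair here.

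Imprinted genes are controlled by DNA methylation set in the egg or the sperm, which need not lie in the gene itself, and the mark decides which parental copy is read. Many of them control growth: paternally expressed genes such as Igf2 tend to promote it, and maternally expressed genes such as Igf2r, Cdkn1c and Grb10 tend to restrain it. Several imprinted genes are high in embryonic tissue and fall after birth, and in mouse embryos many of them are expressed together, with Plagl1 among their regulators. H19, Igf2r, Meg3, Cdkn1c and, in most tissues, Grb10 are read from the maternal copy. Igf2, Dlk1, Peg3, Plagl1 and Mest are read from the paternal copy. The deposited values give total RNA of a gene and do not separate the alleles.

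H19, Igf2, Meg3 and Mest also carry microRNAs within their gene bounds, so their sequences are shown to identify what these transcripts can give rise to. The mature sequences below are from RefSeq (GRCm38.p6), with the seed, bases 2 to 8, in capitals. miR-675 lies in H19, miR-483 in Igf2, miR-770 and miR-1906 in Meg3 and miR-335 in Mest, and no seed is shared among these 9 mature sequences. The libraries were made from poly(A) RNA, and the values below are those of the host transcripts, not of the mature microRNAs.
mmu-miR-675-5p: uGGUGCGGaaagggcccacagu
mmu-miR-675-3p: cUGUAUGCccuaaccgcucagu
mmu-miR-483-5p: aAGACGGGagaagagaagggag
mmu-miR-483-3p: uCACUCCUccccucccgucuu
mmu-miR-770-5p: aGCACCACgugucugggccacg
mmu-miR-770-3p: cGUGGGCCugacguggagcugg
mmu-miR-1906: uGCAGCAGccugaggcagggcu
mmu-miR-335-5p: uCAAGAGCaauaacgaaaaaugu
mmu-miR-335-3p: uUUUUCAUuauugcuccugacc

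Promoters of 300 bases (250 before to 50 after the start, RefSeq, GRCm38.p6) were held for 8 of the 10 genes, with 15 starts in all. H19 and Cdkn1c had no entry. Shown are a CpG-rich start of Igf2 (chr7:142658755-142659054, minus strand), the start of Plagl1 (chr10:13090582-13090881, plus strand), the second of the Mest starts (chr6:30737800-30738099, plus strand) and the start of Dlk1 (chr12:109452573-109452872, plus strand), because these 4 genes varied most among the members with an entry. Capitals mark CpG, the dinucleotide at which DNA is methylated. Methylation was not measured, and the windows are not shown to hold the mark that sets imprinting.
Igf2 promoter: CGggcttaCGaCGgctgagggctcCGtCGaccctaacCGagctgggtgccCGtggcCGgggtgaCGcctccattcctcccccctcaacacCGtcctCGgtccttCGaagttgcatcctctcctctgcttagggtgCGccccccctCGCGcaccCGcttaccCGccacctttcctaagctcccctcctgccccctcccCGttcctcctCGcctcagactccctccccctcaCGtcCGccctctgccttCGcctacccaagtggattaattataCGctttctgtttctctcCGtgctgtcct
Plagl1 promoter: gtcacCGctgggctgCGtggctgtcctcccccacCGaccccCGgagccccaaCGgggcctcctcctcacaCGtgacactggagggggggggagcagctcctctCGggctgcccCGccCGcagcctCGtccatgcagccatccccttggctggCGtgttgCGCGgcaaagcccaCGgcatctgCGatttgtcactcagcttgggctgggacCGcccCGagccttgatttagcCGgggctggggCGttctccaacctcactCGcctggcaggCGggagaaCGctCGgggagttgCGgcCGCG
Mest promoter: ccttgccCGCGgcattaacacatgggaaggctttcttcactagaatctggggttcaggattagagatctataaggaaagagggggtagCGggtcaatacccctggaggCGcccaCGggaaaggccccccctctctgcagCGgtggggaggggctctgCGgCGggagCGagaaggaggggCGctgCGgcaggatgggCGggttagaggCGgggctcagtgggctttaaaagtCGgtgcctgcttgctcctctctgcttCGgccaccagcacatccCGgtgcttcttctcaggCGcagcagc
Dlk1 promoter: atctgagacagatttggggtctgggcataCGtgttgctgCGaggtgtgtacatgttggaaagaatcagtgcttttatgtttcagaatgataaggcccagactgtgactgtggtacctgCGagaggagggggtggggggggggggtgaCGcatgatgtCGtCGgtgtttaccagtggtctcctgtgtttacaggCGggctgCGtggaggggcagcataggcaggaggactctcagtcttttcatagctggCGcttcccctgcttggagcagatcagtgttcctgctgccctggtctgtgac

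The Igf2 stretch holds 24 CpG, that of Plagl1 26, that of Mest 17 and that of Dlk1 9, against a median of 7 over 32851 RefSeq promoters of this length (quartiles 3 and 20). The other 3 Igf2 starts hold 2, 14 and 7. Among the members the count ran from 1, at a Meg3 start, to 45, at a Grb10 start. PLAGL1 binds the GC-rich core GGGGCCCC. That core, which reads the same on both strands, was found in 1.08% of all promoters and in 1 of the 15 member promoters, that of Peg3. A longer PLAGL1 form and the core of the CTCF motif, searched on both strands, were found in 0.0852% and 0.0365% of all promoters and in 0 of the member promoters. The shorter PLAGL1 core lies within the longer one. A match describes letters in this window and no site.

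Library totals, in estimated counts, lay between 56967176 and 70240738, and 11439 to 11608 genes reached 1 FPKM, fragments per kilobase of transcript, scaled by the authors to the fragments of the library. Of 8 granulosa cell markers in the table, 4 averaged at least 1 FPKM, and some that define the cells were low: Foxl2 did not exceed 0.204 FPKM and Cyp11a1 0.0360 FPKM in any library, although Inhba stood between 87.5 and 146 FPKM. Smooth muscle and pericyte markers, summed over 8 genes, stood at 3486, 3330 and 2710 FPKM in control 1, 2 and 3 and at 3675, 3260 and 2451 FPKM in PS-MP 1, 2 and 3, with Acta2 between 1406 and 2130 FPKM. Surface epithelium markers, summed over 8 genes, stood at 20.3, 7.19 and 2.86 FPKM in control 1, 2 and 3 and at 23.2, 6.75 and 2.28 FPKM in PS-MP 1, 2 and 3. Stroma markers, summed over 7 genes, stood at 1302, 917 and 694 FPKM in control 1, 2 and 3 and at 1087, 876 and 713 FPKM in PS-MP 1, 2 and 3. The granulosa sum stood at 165, 128 and 125 FPKM in control and 152, 133 and 104 FPKM in PS-MP libraries, and the theca sum, over 4 genes, at 4.51, 3.68 and 2.53 and at 6.02, 4.58 and 3.04 FPKM. All 5 sums were thus highest in number 1 and lowest in number 3 in both groups, but not every marker in them was. Inhba made up most of the granulosa sum, Star most of the theca sum, and Acta2 with Tagln most of the smooth muscle and pericyte sum. In the last of these lists, 6 of 8 markers had both libraries of pair 3 below the other 4. Rgs5 did not exceed 0.278 FPKM and was highest in number 3 in both groups. Cspg4 rose with the number, from 5.34 to 5.41 FPKM in control and from 4.39 to 6.28 FPKM in PS-MP libraries. The granulosa marker Gja1 rose with the number, from 9.34 to 11.3 FPKM in control and from 10.2 to 11.7 FPKM in PS-MP libraries. By the rule used below, the markers called among the numbers were 5 of 6 tested for surface epithelium, 3 of 7 for stroma, 3 of 8 for smooth muscle and pericytes (Myh11, Des and Cnn1), 1 of 7 for granulosa cells (Fst) and 1 of 2 for theca (Star). That rule called 7.34% of all tested genes. Of the 3 called for stroma, Col1a1 and Lum fell from number 1 to number 3. The third, Dcn, rose, from 6.72 to 12.4 FPKM in control and from 8.68 to 11.5 FPKM in PS-MP libraries. The leukocyte sum, over 4 genes, had the opposite order, from 2.89 and 2.90 FPKM in number 1 to 4.34 and 4.33 FPKM in number 3. Of 3 leukocyte markers tested, 0 were called among the numbers. Cd68 and Lyz2 made up most of the sum, and Ptprc did not exceed 0.00288 FPKM in any library. Of the surface epithelium markers Krt18 was the highest, at 1.23 to 12.4 FPKM, whereas Upk3b, Lrrn4 and Muc16 were at 0 in at least 1 library. Endothelial markers summed to at most 0.402 FPKM over 5 genes.

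The 10 genes spanned a wide range of levels. Grb10 was the highest, at 39.4 to 54.4 FPKM, followed by Igf2r at 15.1 to 19 FPKM and Meg3 at 7.26 to 8.95 FPKM. These 3 did not overlap with each other in any library. Peg3, at 3.31 to 5.93 FPKM, lay below Meg3 in every library, and H19, at 1.98 to 11.1 FPKM, overlapped with both. Cdkn1c, Plagl1, Igf2, Dlk1 and Mest lay between 0.328 and 2.18 FPKM, and each overlapped with its neighbours in the order of group means.

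**Figure D1:**
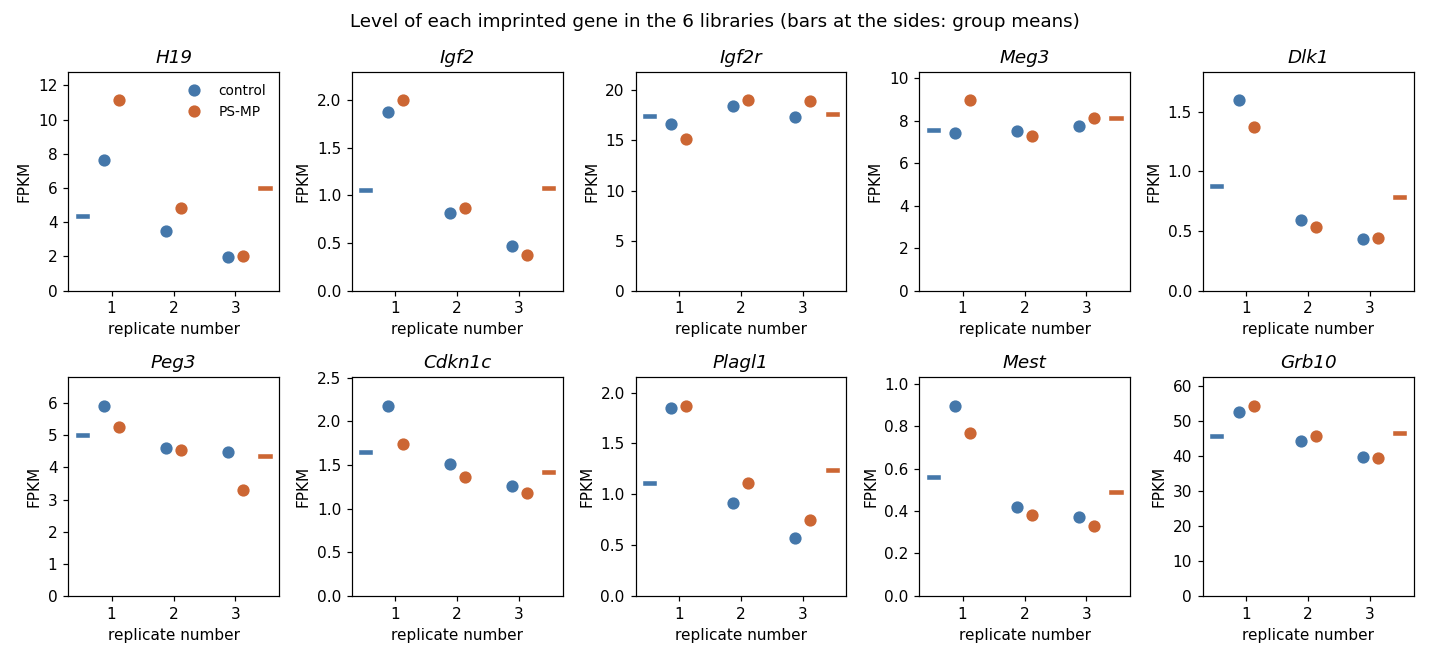
FPKM of each gene (vertical axes, from 0, with a scale of their own per gene) by replicate number for 3 control and 3 PS-MP libraries, with group means as bars at the sides. H19, Igf2, Dlk1, Plagl1 and Mest were highest in both libraries numbered 1 and lowest in both numbered 3, while Meg3 and Igf2r stayed between 7.26 and 8.95 and between 15.1 and 19 FPKM.

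Among the 10 genes, H19, Igf2, Dlk1, Plagl1 and Mest differed between the replicate numbers, highest in number 1 and lowest in number 3. In edgeR's quasi-likelihood test of the replicate numbers (treatment as a covariate, Benjamini-Hochberg over all 17186 tested genes), 5 of the 10 members were called, that is, their adjusted p was under 0.05 and the highest number exceeded the lowest by 1.5-fold or more. The same rule called 1261 genes, 7.34% of those tested. Because the members were chosen with earlier results of these data known, the 2 shares are a description and no test of the members as a set. In bulk RNA, fewer cells of a type and less RNA per cell cannot be told apart, and this holds for every difference below. The part of the cells that carry surface epithelium, stroma, smooth muscle, granulosa or theca markers in these differences was not tested.

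Igf2 encodes the fetal growth factor that acts through the type 1 insulin-like growth factor receptor (ENSMUSG00000048583, chromosome 7, 142204503 to 142220553, minus strand, GRCm39, as for all gene positions below). Its level was 1.88, 0.815 and 0.465 FPKM in control 1, 2 and 3 and 1.99, 0.868 and 0.370 FPKM in PS-MP 1, 2 and 3. Both libraries numbered 1 were high and both numbered 3 low, with no overlap between numbers. Number 1 exceeded number 3 by 2.21 ± 0.16 on the log2 scale (SE), a 4.64-fold difference (adjusted p = 0.000640 among the numbers, edgeR). Other annotated genes cover 65.5% of the exon bases of Igf2. The deposited counts of these overlapping genes were low: Gm49394, on the same strand, was at 0 in all libraries, and the antisense Igf2os reached at most 8.

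H19, the non-coding RNA transcribed next to Igf2 from the opposite parental copy (ENSMUSG00000000031, chromosome 7, 142129262 to 142131917, minus strand), showed the same order. Its level was 7.66, 3.48 and 1.98 FPKM in control 1, 2 and 3 and 11.1, 4.83 and 2.03 FPKM in PS-MP 1, 2 and 3. Numbers did not overlap. The difference between numbers 1 and 3 was 2.19 ± 0.14 (log2, SE), or 4.57-fold (adjusted p = 0.000383 among the numbers, edgeR).

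Dlk1 encodes a transmembrane ligand related to Notch ligands that restrains fat cell differentiation (ENSMUSG00000040856, chromosome 12, 109418749 to 109429262, plus strand). Its level was 1.59, 0.591 and 0.435 FPKM in control libraries and 1.37, 0.537 and 0.440 FPKM in PS-MP libraries, in the order of their numbers. Number 1 stood apart from the other 2 numbers by 1.36 ± 0.16 against number 2 and 1.74 ± 0.16 against number 3 (log2, SE; adjusted p = 0.00105 among the numbers, edgeR). Numbers 2 and 3 differed by 0.38, with a 95% interval from -0.003 to 0.77. Meg3, the non-coding RNA read from the other parental copy of the same imprinted domain (ENSMUSG00000021268, chromosome 12, 109506879 to 109538165, plus strand), did not pass among the numbers (adjusted p = 0.576, edgeR). It stood at 7.43, 7.5 and 7.76 FPKM in control and 8.95, 7.26 and 8.12 FPKM in PS-MP libraries. Its difference between numbers 1 and 3 was 0.04, with a 95% interval from -0.14 to 0.23. The interval of Meg3 lies wholly below that of Dlk1 for the same contrast, 1.36 to 2.12, and the difference between these genes of 1 domain was not itself tested.

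Plagl1 encodes the zinc finger factor that regulates other imprinted genes in mouse (ENSMUSG00000019817, chromosome 10, 12936248 to 13006726, plus strand). It stood at 1.85, 0.911 and 0.566 FPKM in control and 1.87, 1.11 and 0.744 FPKM in PS-MP libraries. Pair 1 was high and pair 3 low, with a log2 difference of 1.51 ± 0.14 (SE; 2.84-fold, adjusted p = 0.00124 among the numbers, edgeR). Mest encodes an enzyme of the alpha/beta hydrolase fold that is linked to fetal growth (ENSMUSG00000051855, chromosome 6, 30723546 to 30748461, plus strand). It stood at 0.896, 0.420 and 0.371 FPKM in control and 0.766, 0.380 and 0.328 FPKM in PS-MP libraries, with numbers 1 and 3 apart by 1.24 ± 0.23 (log2, SE; adjusted p = 0.0159). The call of Mest was lost without control 1 (adjusted p = 0.153) or without PS-MP 1 (0.123), and with no filter on low counts (0.0517). Copg2, which lies antisense to Mest over 47.7% of its exon bases, had 1715 to 2514 counts per library against 94 to 232 for Mest. The sources used here do not give whether strand was used in counting, so the level of Mest is uncertain.

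The other members varied less by number. Grb10, an adaptor that restrains insulin and insulin-like growth factor signalling (ENSMUSG00000020176, chromosome 11, 11883094 to 11976732, minus strand), stood at 52.7, 44.5 and 39.9 FPKM in control and 54.4, 45.7 and 39.4 FPKM in PS-MP libraries. It passed on p alone among the numbers (adjusted p = 0.00399, edgeR), with 1.35-fold between the extremes, under the 1.5-fold asked. Peg3, a zinc finger factor (ENSMUSG00000002265, chromosome 7, 6706891 to 6733420, minus strand), stood at 5.93, 4.61 and 4.50 FPKM in control and 5.26, 4.54 and 3.31 FPKM in PS-MP libraries. It too passed on p alone (adjusted p = 0.0188, 1.44-fold), and it was called without control 3 (adjusted p = 0.00328). On p alone 7 members passed, where 14.9% of all tested genes did.

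Cdkn1c encodes p57, an inhibitor of cyclin-dependent kinases (ENSMUSG00000037664, chromosome 7, 143012076 to 143014787, minus strand). It stood at 2.18, 1.51 and 1.26 FPKM in control and 1.73, 1.36 and 1.17 FPKM in PS-MP libraries, with an adjusted p of 0.104 among the numbers (edgeR). The antisense gene that covers 29.0% of its exon bases, Gm44732, was at 0 counts in every library. Igf2r, the receptor that clears insulin-like growth factor 2 by carrying it to lysosomes (ENSMUSG00000023830, chromosome 17, 12901293 to 12988551, minus strand), stood at 16.6, 18.4 and 17.3 FPKM in control and 15.1, 19 and 18.9 FPKM in PS-MP libraries. Both libraries numbered 1 were its lowest, opposite to the other members that varied by number, and its adjusted p was 0.114. The lower level of Igf2r in number 1 amounted to -0.26 ± 0.08 against number 2 and -0.19 ± 0.08 against number 3 (log2, SE).

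**Figure D2:**
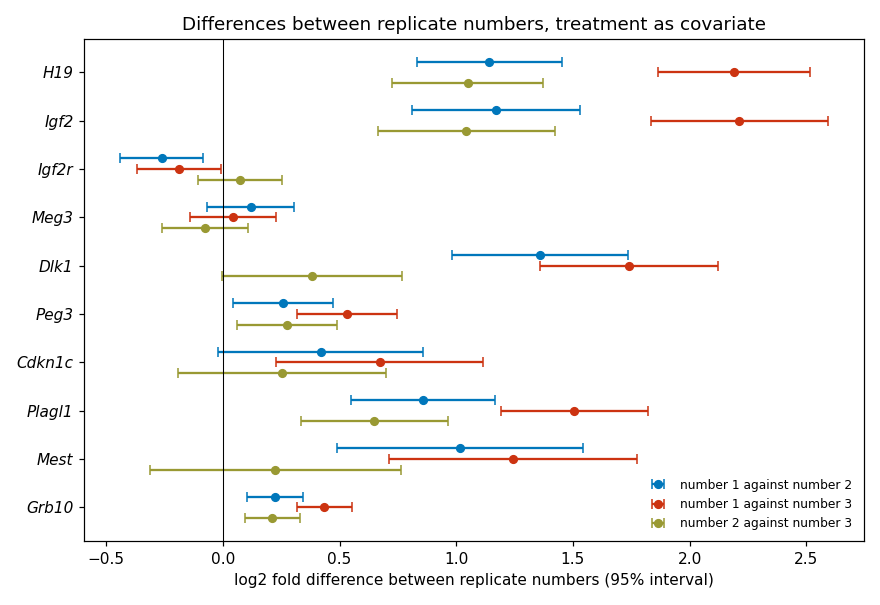
Log2 differences between replicate numbers (horizontal axis, points) with 95% intervals (lines) from the edgeR fit with treatment as a covariate, for each of the 10 genes. H19 and Igf2 lie near 2.2 for number 1 against number 3, Dlk1 at 1.74 and Plagl1 at 1.51, whereas the intervals of Meg3 include 0 in all 3 contrasts and Igf2r lies below 0 in both contrasts of number 1. The intervals are not adjusted for all genes tested, and Igf2r did not pass among the numbers (adjusted p = 0.114, edgeR).

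Seen over all libraries, 8 members, all but Meg3 and Igf2r, had both libraries of pair 1 above the other 4 libraries, a pattern that 20.0% of tested genes showed. The same 8 had both libraries of pair 3 below the other 4, against 14.2% of tested genes, and 8.34% of tested genes showed both patterns. As the members were chosen with earlier results of these data known, these shares do not test them as a set. The replicate number took a median of 95.7% of the variance of log2 library-scaled counts over the 10 members and treatment 2.86%, against medians of 61.5% and 7.20% over all tested genes. Treatment took between 0.00650% of the variance for Grb10 and 20.0% for Peg3. The genes read from either parental copy are both among the 8: H19, Cdkn1c and Grb10 are maternally expressed, and Igf2, Dlk1, Peg3, Plagl1 and Mest paternally expressed.

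As a description over 6 libraries that share their pairs, levels of the 8 genes moved together. Pearson's r of log2(FPKM + 0.1) was highest between Igf2 and Grb10 (0.996; Spearman 1.00) and between Dlk1 and Mest (0.994; Spearman 0.943), and it was 0.977 between H19 and Igf2. Among the 8 the lowest was 0.737, between Peg3 and Plagl1. Meg3 stood between -0.082 and 0.289 with the 8, and Igf2r between -0.814 and -0.644.

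**Figure D3:**
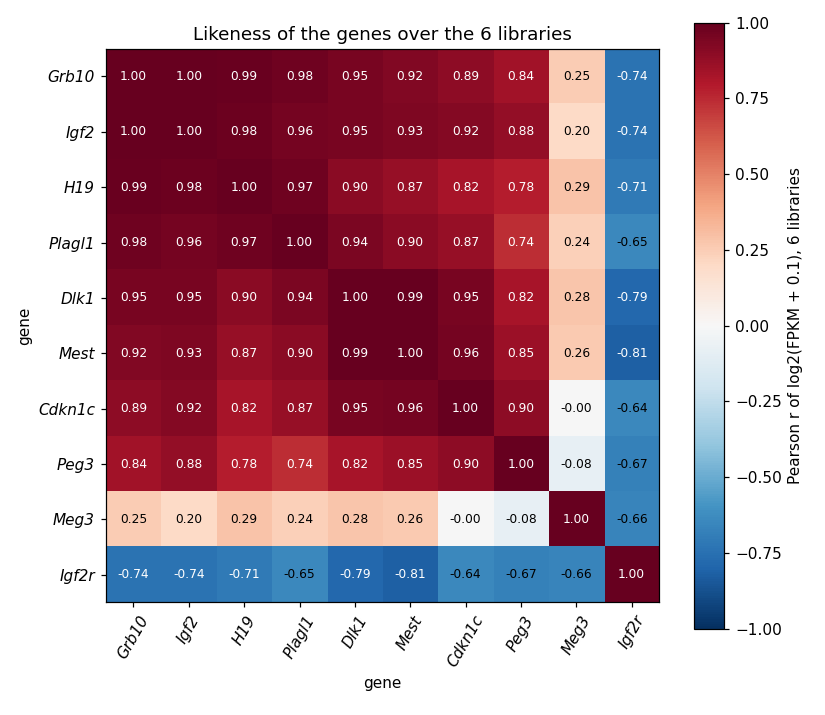
Pearson correlation (colour and printed value) of log2(FPKM + 0.1) over the 6 libraries for each pair of genes (both axes list the 10 genes). The 8 genes at the upper left lie between 0.74 and 1.00, Meg3 is near 0 with them and Igf2r is negative with every other gene.

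Outside the members, the genes of at least 1 FPKM whose levels were most like those of H19 over the 6 libraries were Ccnb1, Depdc1a and Ccna2 (Pearson's r 0.999, 0.997 and 0.996). Ccnb1 and Ccna2 encode cyclins of cell division, and Ccnb1 stood at 21.2, 17.1 and 14.9 FPKM in control and 22.9, 18.7 and 14.8 FPKM in PS-MP libraries. For Igf2 they were Bdh1, Ect2 and Rbms3 (0.998, 0.997 and 0.997), and for Mest Gm47283, Prkar2a and Igfbp2 (0.999, 0.998 and 0.998). Dlk1 was nearest to Rnf217, Dnmt3a and Dot1l (0.999, 0.998 and 0.997); Dnmt3a, a de novo DNA methyltransferase, stood at 2.11, 1.38 and 1.21 FPKM in control and 2.03, 1.31 and 1.19 FPKM in PS-MP libraries. Meg3, outside the group of 8, was nearest to Zfp637, Bud31 and Tomm22 (0.983, 0.976 and 0.972). Such values are common in these data: 332 genes exceeded 0.95 with H19 and 501 with Igf2, of 11565 compared, and 15 did with Meg3.

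Polystyrene particles were not followed by a detectable change in any of the 10 genes. In edgeR's quasi-likelihood test of PS-MP against control over all 6 libraries, 0 members and 0 of 17186 tested genes (0.00%) passed (adjusted p under 0.05 with 1.5-fold or more), with a lowest adjusted p of 1.00. At an unadjusted p under 0.05 there were 0 members, and 226 genes or 1.32% of those tested. DESeq2 called 0 members and 1 gene. Log2 fold changes were positive in 5 members and negative in 5, with a median of 0.001, and over all tested genes the median was 0.00003. In 0 of the 10 members did the groups separate without overlap, against 6.21% of tested genes.

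The precision differed widely among the members, since the group SD holds the differences between numbers. For Grb10 the log2 fold change was 0.00 (95% interval -0.33 to 0.34), for Igf2r -0.00 (-0.26 to 0.25) and for Meg3 0.08 (-0.11 to 0.27). These 3 intervals lie within 1.5-fold in either direction. For Igf2 the value was 0.01 with an interval from -1.57 to 1.59, and for H19 0.43 with an interval from -1.13 to 1.98, so that changes of 2-fold in either direction could not have been told from 0 without the pairs. The mean FPKM of H19 was 4.38 ± 2.94 over control and 5.99 ± 4.65 over PS-MP (SD of 3 libraries, as below), and that of Igf2 was 1.05 ± 0.735 and 1.08 ± 0.833.

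With the replicate number as a block, which compares within pairs, 0 members were called and 1 gene was (0.00582% of those tested). At an unadjusted p under 0.05 there were then 2 members, H19 and Peg3, where 4.94% of tested genes passed. H19 was higher with PS-MP in 3 of 3 pairs, by 0.50, 0.44 and 0.04 on the log2 scale in pairs 1, 2 and 3. Its blocked log2 fold change was 0.34 ± 0.11 (SE; 95% interval 0.08 to 0.60, unadjusted p = 0.0160, adjusted p = 0.884 by edgeR), which fails the correction. Peg3 lay lower in 3 of 3 pairs, by -0.20, -0.05 and -0.44, and its blocked value was -0.23 ± 0.08 (SE; unadjusted p = 0.0158, adjusted p = 0.884 by edgeR), which fails it too. The mean FPKM of Peg3 was 5.01 ± 0.793 over control and 4.37 ± 0.986 over PS-MP (SD of 3 libraries).

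Cdkn1c and Mest also lay lower with PS-MP in every pair, and neither passed. Pair differences of Cdkn1c were -0.36, -0.18 and -0.10, with a blocked log2 fold change of -0.22 (95% interval -0.58 to 0.14). Those of Mest were -0.25, -0.18 and -0.17, with a blocked value of -0.20 (-0.63 to 0.23). Plagl1 had -0.01, 0.24 and 0.37 in pairs 1, 2 and 3 and Igf2 0.06, 0.06 and -0.33. Dlk1 had -0.25, -0.18 and 0.01 and Meg3 0.24, -0.08 and 0.07. Igf2r had -0.17, 0.01 and 0.13 and Grb10 0.02, 0.01 and -0.02. Grb10 thus differed by at most 0.02 within any pair, with a blocked interval from -0.09 to 0.10.

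**Figure D4:**
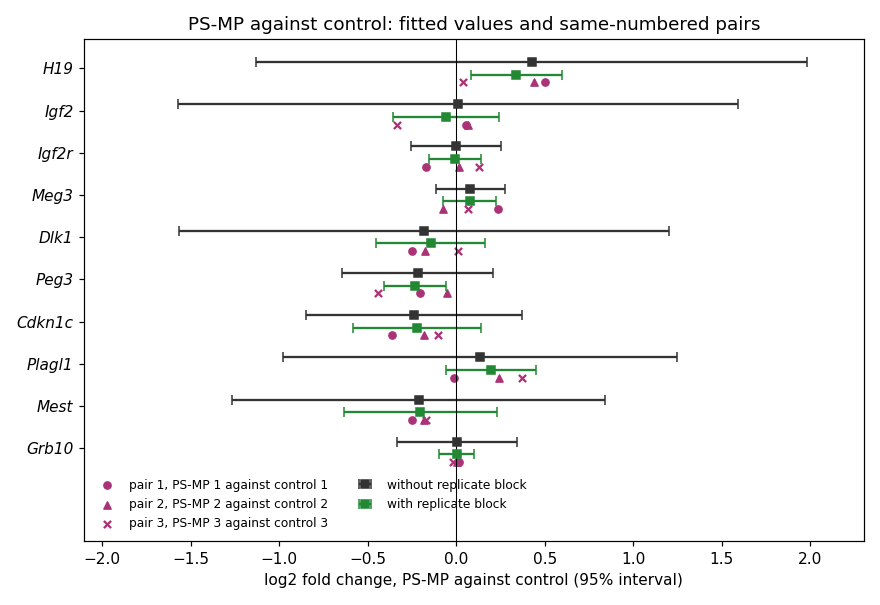
Log2 fold change of PS-MP against control (horizontal axis) for each gene, as squares with 95% intervals from edgeR without and with the replicate number as a block, and as small symbols for each same-numbered pair. Without the block every interval includes 0, and with it those of H19 (0.08 to 0.60) and Peg3 (-0.41 to -0.06) do not, before adjustment for all genes tested.

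The level of H19 relative to its neighbour Igf2 was steadier than either gene. The FPKM ratio of H19 to Igf2 was 4.08, 4.28 and 4.26 in control 1, 2 and 3 and 5.57, 5.56 and 5.51 in PS-MP 1, 2 and 3. Within a group the ratio hardly moved, while each gene changed over 3-fold between the numbers, and the groups did not overlap. The mean ratio was 4.21 ± 0.107 over control and 5.55 ± 0.0363 over PS-MP (SD of 3 libraries), 1.32 times as high with PS-MP. The ratio of deposited counts gave 1.9, 1.99 and 1.98 in control and 2.58, 2.57 and 2.57 in PS-MP libraries. The counts behind it were low in number 3: 351 for H19 and 177 for Igf2 in control 3, and 390 and 152 in PS-MP 3. The spread of the ratio from counting alone was not tested, so its steadiness is not a measure of precision.

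This ratio was singled out after its values were seen, so it carries no test. Of the 45 ratios between members, 3 did not overlap between groups (6.67%), whether from FPKM or from counts. Of 16592 other genes with a level above 0 in every library, 0.259% had a ratio to Igf2 that did not overlap between groups, and 0.398% had such a ratio to H19. Igf2 and H19 differ strongly between the numbers, so the ratio of a gene without that order overlaps almost by necessity. These shares therefore do not tell how rare a separate ratio is among genes that follow Igf2 or H19, which was not tested. The other 2 of the 45 were Peg3 to Grb10, at 0.113, 0.104 and 0.113 in control and 0.0966, 0.0995 and 0.0840 in PS-MP libraries, and Plagl1 to Mest. Plagl1 to Mest stood at 2.06, 2.17 and 1.53 in control and 2.44, 2.92 and 2.27 in PS-MP libraries, a wider spread than that of H19 to Igf2.

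**Figure D5:**
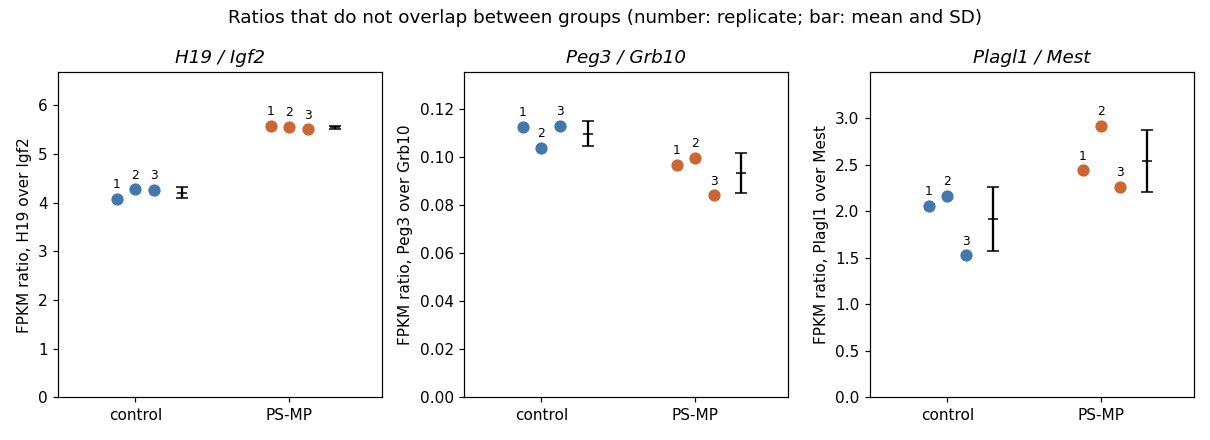
FPKM ratios (vertical axes, from 0) of the 3 gene pairs whose control and PS-MP libraries did not overlap, with 1 point per library, its replicate number beside it, and the mean with SD as a bar. The ratio of H19 to Igf2 lies between 4.08 and 4.28 in control and between 5.51 and 5.57 in PS-MP libraries.

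Genes listed as imprinted in mouse, outside the 10, were called among the numbers at shares on either side of that of all tested genes. Whether each is imprinted in these cells was not tested, since the values do not separate the alleles. Of 24 tested genes outside the members that are listed as maternally expressed, 1 was called among the numbers and 0 between PS-MP and control (0 higher, 0 lower, median log2 fold change 0.05). The 1 called was Tfpi2, a protease inhibitor, and it ran the other way, at 16.3, 22.5 and 38.6 FPKM in control and 18.7, 24.2 and 36.3 FPKM in PS-MP libraries. The most abundant were Cd81, a tetraspanin, at 94.0 to 127 FPKM and Gnas, the stimulatory G protein subunit, at 104 to 120 FPKM. Both rose with the number in both groups, and Cd81 passed on p alone (adjusted p = 0.00544 among the numbers, edgeR). Of 20 tested genes listed as paternally expressed, 2 were called among the numbers, Slc38a4 and Peg10, and 0 between PS-MP and control (median -0.07). Slc38a4, an amino acid transporter, stood at 19.7, 11.5 and 10.6 FPKM in control and 18.3, 9.53 and 9.23 FPKM in PS-MP libraries. Ndn, which encodes necdin, was the most abundant of them, at 22 to 28.9 FPKM, followed by Impact, a regulator of translation, at 16.8 to 19.7 FPKM. Ndn rose with the number in both groups and passed on p alone (adjusted p = 0.0199 among the numbers, edgeR). The shares called among the numbers, 4.17% and 10%, stand beside 7.34% of all tested genes.

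Genes that keep imprints through cell division were also without a call between the groups. Of 9 tested, 0 were called between PS-MP and control, and their log2 fold changes had a median of -0.04. They were highest in number 1 all the same: 9 of 9 had both libraries of pair 1 above the other 4, against 20.0% of tested genes. None reached 1.5-fold between the numbers, so 0 were called there. Their median range was 0.26 on the log2 scale, against 0.31 over all tested genes. The list was chosen with earlier results of these data known, so these shares do not test it as a set. Smchd1, a chromatin protein, and Uhrf1 passed on p alone (adjusted p = 0.0181 and 0.0464, edgeR). Trim28, a corepressor recruited to imprinted regions by zinc finger proteins, was the most abundant at 74.0 to 95.3 FPKM, followed by Uhrf1, which recruits the maintenance methyltransferase, at 17.3 to 22.5 FPKM. Of 20 tested genes of the insulin-like growth factor axis, 0 were called between PS-MP and control (median -0.01). Among the numbers 5 were called, or 25%, beside 7.34% of all tested genes. The 5 were Igf1, Igfbp2, Igfbp5, Pappa and Stc2, each with both libraries of pair 1 above the other 4. Igfbp2, a binding protein of the growth factor, stood at 5.48, 1.2 and 0.994 FPKM in control and 4.56, 1.11 and 0.789 FPKM in PS-MP libraries. Igfbp7 and Igfbp6, the most abundant of the axis, rose from number 1 to number 3 in both groups. Igfbp7 stood at 455, 556 and 607 FPKM in control and 461, 525 and 579 FPKM in PS-MP libraries. Igfbp6 stood at 27.0, 34.7 and 38.4 FPKM in control and 30.5, 38.1 and 39.9 FPKM in PS-MP libraries. They passed on p alone (adjusted p = 0.00792 and 0.0119 among the numbers, edgeR). In all, 7 of the 20 had both libraries of pair 1 above the other 4.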

How the data were processed

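RNA was measured in 6 libraries, 3 control and 3 PS-MP. The submitters' processing notes name cutadapt 1.9, FastQC, HISAT2 2.2.1, StringTie 2.1.6 and the build GRCm39, without roles or order. The authors deposited FPKM and, per the file headers, a count per gene. How the counts were made is not given. The value 4 occurs 6687 times, 3 occurs 3161 times and 5 occurs 2040 times. They are therefore handled as estimated counts deposited by the authors, with no counting intervals. Rounding altered 0 values. A further 12 columns, of 6 libraries with other names, were not used. Totals of 56967176 to 70240738 give the depth.

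The main tests were those of edgeR 4.0.16, run in R 4.3.3 (TMM, filterByExpr, quasi-likelihood, two-sided, Benjamini-Hochberg over 17186 genes), treatment alone for PS-MP against control, and an F test of the replicate numbers with treatment as a covariate. A call needed 1.5-fold or more with an adjusted p under 0.05. Alternatives used DESeq2 1.42.0 and limma 3.58.1. The tests were also run on simulated counts. Where treatment was changed, these held no difference among the replicate numbers, so they do not give the power of the treatment test in these data. Coordinates are those of the deposited table, and exon overlap is from GENCODE M39.

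Deviations from group means, over 8785 genes above 10 CPM in every library, correlated at 0.82, 0.20 and 0.72 between same-numbered libraries 1, 2 and 3, each above the 0.1 taken as pairing. The unlike numbers 2 and 3 were also above it, at 0.21 (control 2 against PS-MP 3) and 0.22 (control 3 against PS-MP 2). The members and lists were chosen with earlier results of these data known. Named are all members, the 2 most abundant genes per list (or up to 4 called for PS-MP), and the 3 most alike genes for H19, Igf2, Meg3, Dlk1 and Mest. Tfpi2, Slc38a4, Peg10, Igf1, Igfbp2, Igfbp5, Pappa, Stc2, Smchd1, Copg2, the single markers and the single ratios were chosen after their values were seen.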

Additional observations from a re-analysis of the deposited data

How the results depend on the processing

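No member was called between PS-MP and control under any alternative run (0 in each). Over all genes the count was 1 with DESeq2 and 1 with the replicate number as a block, 0 to 1 with single libraries left out, and 1, 15 and 9 with the block and pair 1, 2 or 3 left out. The members' median log2 fold change (0.001) moved with single libraries, from -0.36 without PS-MP 1 to 0.20 without control 1, and was -0.068 with the block and without pair 2. Since each pair has its own level, leaving out 1 library unbalances the numbers between the groups.

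Signs of members near 0 turned. Igf2 was -0.033 on log2(FPKM + 0.1), -0.056 with the block, and -0.13 and -0.12 with the block and without pair 1 or 2. Igf2r was 0.00035 with the stricter filter, 0.00049 with counts divided by 4, 0.011 on log2(FPKM + 0.1) and log2(FPKM + 1), and 0.072 with the block and without pair 1. Grb10 was -0.00090 with RLE factors and with DESeq2 and -0.0037 with the block and without pair 1, where Meg3 was -0.0036. With single libraries left out the range was -0.36 to 1.09 for H19, -0.78 to 0.72 for Igf2, -0.063 to 0.10 for Igf2r, -0.85 to 0.57 for Dlk1, -0.41 to 0.011 for Cdkn1c, -0.28 to 0.70 for Plagl1, -0.68 to 0.28 for Mest and -0.12 to 0.12 for Grb10. Meg3 (0.01 to 0.15) and Peg3 (-0.37 to -0.05) kept their sign.

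Among the numbers, 4 to 6 members were called in every alternative, and H19, Igf2, Dlk1 and Plagl1 were called in each. Over all genes 1261 were called, 743 with no filter, and 731 to 1453 with single libraries left out, the fewest without PS-MP 1 and 749 without control 1. The cause of these moves was not tested. The block changed no other call. Depth limits Mest most, with 94 counts in the lowest library.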
